A study of Mus musculus with 6 samples.

Results

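The insulin-like growth factor (IGF) axis is represented by the SP1 binding sites of 7 mouse genes: the ligand Igf1, the binding proteins Igfbp1, Igfbp2, Igfbp3 and Igfbp5, and the intracellular adaptors Irs1 and Grb10. A site was taken when its midpoint lay inside the gene or within 50000 bp of either end, with gene positions from RefSeq on mm10 (GRCm38.p6). All 7 genes had sites, 37 of the 9001 in the authors' deposited table, at 5 loci, because Igfbp1 and Igfbp3 are neighbours 3.54 kb apart and shared all 6 of their sites, while Igfbp2 and Igfbp5, 5.59 kb apart, shared 8 of 9. The samples were 3 ATAC-seq libraries of neural progenitor cells (NPC) labelled R1 and 3 of the R1 mouse embryonic stem cell line (ESC). Every library has R1 in its title, and no treatment or genetic change is given for either group. R1 is a pluripotent line, and NPC are dividing cells that can form neurons and glia. How the NPC were made is not given in the sources used here, nor whether the 3 libraries of each were grown separately, so the spread behind the p-values may be technical. ATAC-seq counts insertions of the Tn5 transposase, and so reads how open the chromatin is. SP1 is a zinc-finger factor that binds GC-rich DNA, often at promoters. The series was made in a study of apparent binding affinities of transcription factors, and the comparison asks how the accessibility of SP1 sites differs between the 2 cell types.

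IGF1 is a secreted growth factor that signals through a receptor tyrosine kinase. The IGF-binding proteins hold it in the extracellular fluid, and depending on the tissue they restrain or prolong its action. IRS1 is the docking protein that carries the activated receptor's signal to PI3-kinase, and GRB10 binds the same receptors and dampens them. In the nervous system IGF signalling is known for supporting the growth and survival of progenitors and neurons. Grb10 is imprinted: most tissues use the maternal copy and neurons the paternal one, and the values here do not separate the copies.

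Across the 5 loci, SP1 sites rose in NPC against ESC at Irs1 and at Igfbp1 with Igfbp3 more often than they fell. At Grb10 and Igf1 they fell more often than they rose, with 4 falls and 1 rise among 10 sites and 2 falls and 1 rise among 5. That is 40% falling at each, and 33.7% of the 1488 protein-coding genes with 5 or more listed sites had as high a share or higher. At Igfbp2 with Igfbp5 3 of 9 sites rose and 2 fell. At the authors' adjusted p below 0.05, 14 of the 37 sites rose, 9 fell and 14 were not called. That is 37.8% rising and 24.3% falling, where 22.8% of all 9001 listed sites rose and 32.6% fell. The median log2 fold change, NPC over ESC, was 0.15 over the 37 sites and -0.29 over all listed sites. No test was run over the group of genes, whose members were chosen with results of these data known, and sites of a locus are not replicates. Irs1 gave 5 of the 14 rises from 7 of the 37 sites, and without it the rises numbered 9. Igfbp1 with Igfbp3 gave 4 from 6 sites. The share of rises was 33.3% at Igfbp2 with Igfbp5, 20% at Igf1 and 10% at Grb10. Grb10 gave 4 of the 9 falls from 10 sites, and without it the falls numbered 5 and the median was 0.98. Fewer sites were counted without Irs1 or Grb10, and those left out held more than their share of calls. At Irs1 71.4% of sites rose and at Grb10 40% fell.

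**Figure D1:**
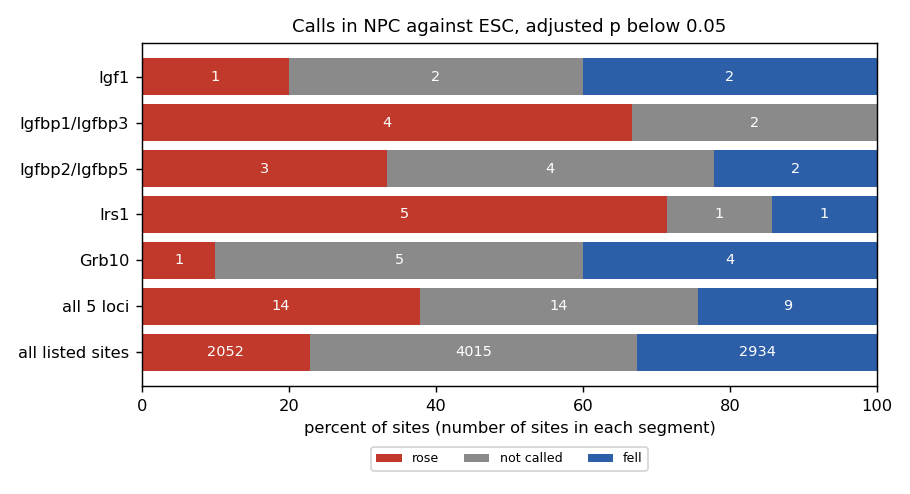
Percent of SP1 sites that rose, were not called or fell in NPC against ESC (adjusted p below 0.05) at each of the 5 loci, at the 5 together and over all listed sites, with the number of sites in each segment. Rises take 5 of 7 sites at Irs1 and 4 of 6 at Igfbp1/Igfbp3, and 1 of 10 at Grb10.

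Values per library were not analysed here, because the single deposited table holds 1 mean signal, 1 log2 fold change and 1 standard error (SE) per site. Mean signal is the average normalized count of the 6 libraries. It ranged from 1.96 to 46.5 over the 37 sites with a median of 7.92, against 5.78 over all listed sites, and depth per library is unknown. The SE of the log2 fold change ranged from 0.25 to 1.53 and was largest at the site of lowest signal. The direction, NPC over ESC, comes from the deposited table's name. Near marker genes, which were chosen with results of these data known and so are no independent check of the direction, 13 of 20 sites near the NPC genes Fabp7, Meis1 and Pou3f3 rose and 2 fell, and 25 of 50 near the ESC genes Tfcp2l1, Prdm14, Nr5a2, Lefty1 and Nodal fell and 8 rose, by the adjusted p-values of the authors' deposited table. Whether a site acts on the gene it lies near was not tested.

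Of the 9 RefSeq promoter windows of these genes, each 250 bases before to 50 after a transcription start, 5 overlapped an SP1 site, and these are shown because they are the promoters over which listed SP1 sites lie. They are RefSeq sequences on GRCm38.p6, written in the direction of the gene. Capitals mark the GC-box core GGGCGG and the longer CCCCGCCC, each searched on both strands, and the longer one contains the shorter one's complement, so their counts overlap.

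Igf1 promoter, chr10:87860861-87861160, plus strand: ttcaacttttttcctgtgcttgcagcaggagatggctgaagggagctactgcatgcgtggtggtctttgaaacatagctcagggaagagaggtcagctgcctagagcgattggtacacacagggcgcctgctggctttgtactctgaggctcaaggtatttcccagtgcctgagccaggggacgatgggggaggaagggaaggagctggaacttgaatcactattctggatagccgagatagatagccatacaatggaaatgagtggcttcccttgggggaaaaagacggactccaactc
Igfbp3 promoter, chr11:7213874-7214173, minus strand: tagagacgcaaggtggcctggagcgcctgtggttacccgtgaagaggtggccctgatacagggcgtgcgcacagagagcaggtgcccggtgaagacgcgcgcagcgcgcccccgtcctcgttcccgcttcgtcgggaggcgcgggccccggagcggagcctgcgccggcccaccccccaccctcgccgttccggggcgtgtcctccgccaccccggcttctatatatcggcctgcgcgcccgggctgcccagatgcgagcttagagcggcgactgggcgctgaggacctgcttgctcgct
Igfbp2 promoter, chr1:72824230-72824529, plus strand: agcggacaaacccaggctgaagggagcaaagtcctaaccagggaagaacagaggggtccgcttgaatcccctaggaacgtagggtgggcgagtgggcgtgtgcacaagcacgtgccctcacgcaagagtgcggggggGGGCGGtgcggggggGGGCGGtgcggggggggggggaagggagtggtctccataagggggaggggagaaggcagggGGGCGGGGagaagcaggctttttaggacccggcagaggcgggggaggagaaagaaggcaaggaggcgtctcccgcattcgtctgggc
Irs1 promoter, chr1:82291390-82291689, minus strand: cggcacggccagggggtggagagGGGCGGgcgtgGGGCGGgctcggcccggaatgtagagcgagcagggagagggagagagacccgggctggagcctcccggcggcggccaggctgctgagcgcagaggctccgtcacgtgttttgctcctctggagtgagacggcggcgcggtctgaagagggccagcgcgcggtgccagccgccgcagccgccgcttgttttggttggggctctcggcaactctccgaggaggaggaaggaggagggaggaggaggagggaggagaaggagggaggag
Grb10 promoter, chr11:12037371-12037670, minus strand: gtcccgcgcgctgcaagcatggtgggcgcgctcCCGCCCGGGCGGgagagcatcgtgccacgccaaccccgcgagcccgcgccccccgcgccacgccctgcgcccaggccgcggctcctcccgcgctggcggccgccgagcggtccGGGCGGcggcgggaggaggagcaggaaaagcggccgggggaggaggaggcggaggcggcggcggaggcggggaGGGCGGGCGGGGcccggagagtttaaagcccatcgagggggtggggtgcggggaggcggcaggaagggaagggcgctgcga

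GGGCGG occurred 5 times in the Grb10 window, 3 times in the first Igfbp2 window, 2 times in the Irs1 window and not in those of Igf1 and Igfbp3. CCCCGCCC or its complement occurred 1 time each at Grb10 and Igfbp2. Over all 32851 RefSeq windows of this length, 35.7% hold GGGCGG and 17.6% hold the longer motif. Among the 1290 windows in the listed regions that overlap a listed SP1 site these shares are 64% and 34.1%, and among the other 2587 they are 20.8% and 10.2%. The Grb10 window is 80% G and C with 45 CpG dinucleotides, the Igfbp3 window 71.7% with 37, the Irs1 window 71.3% with 28, the first Igfbp2 window 67% with 18 and the Igf1 window 52.3% with 6. The Igf1 window is thus near the median of all windows, 52.7% with 7 CpG. Windows without an SP1 site belonged to Igfbp1, Igfbp5 and the second RefSeq starts of Igfbp2 and Grb10, and none of these 4 holds either motif.

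**Figure D2:**
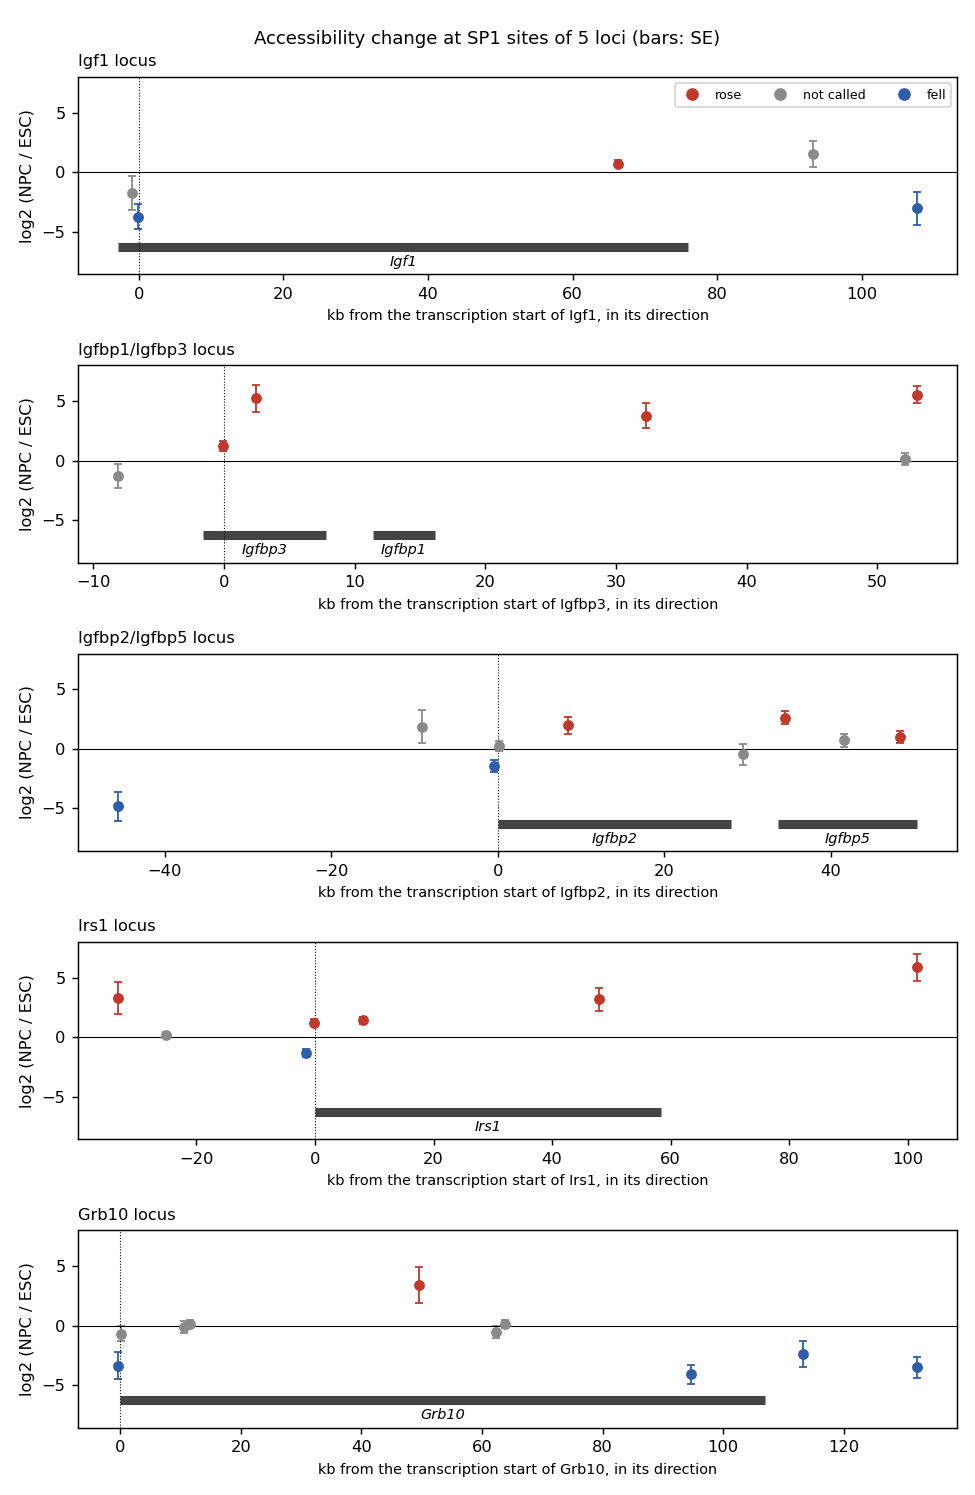
Log2 fold change (NPC over ESC) of each SP1 site with its SE, against the distance in kb from the named gene's transcription start, in that gene's direction, with genes as dark bars. Red sites rose, blue sites fell and grey sites were not called. At Irs1 the rising sites run from upstream of the gene to beyond its far end, and at Grb10 the falls sit at the start and around the far end.

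The ligand gene Igf1 (chromosome 10, 87858265 to 87937047) had 5 sites, with 2 falls, 1 rise and 2 sites not called. The site at 87860785 to 87861285 covers the promoter window printed above, which holds no GC-box core. It fell in the authors' deposited table, at -3.75 ± 1.07 on the log2 scale (SE) with a mean signal of 6.26 and an adjusted p of 0.000751. A weaker neighbour 328 bp farther upstream had -1.76 ± 1.41 at a mean signal of 2.05 in the authors' deposited table and was not called (adjusted p = 0.15). Both start sites also lie inside Igf1os, a noncoding gene annotated across the start of Igf1. Inside the gene, 66.3 kb downstream of the start, the strongest site of the locus rose slightly, by 0.71 ± 0.30 at a mean signal of 42.0 (adjusted p = 0.0157 by the authors' deposited table). Beyond the far end, a site 31.8 kb away at 87968571 to 87969071 fell with -3.05 ± 1.41 (adjusted p = 0.0207) and one 17.4 kb away was not called with 1.52 ± 1.12, both in the authors' deposited table. The more distant of these was no longer called when p was recomputed from the fold change and its SE (adjusted p = 0.0638). The locus thus showed a fall at its start beside a small rise at its most accessible site.

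The binding protein genes held 15 sites, with 7 rises, 2 falls and 6 sites not called. No fall was called at Igfbp1 (chromosome 11, 7197787 to 7202546) and Igfbp3 (7206086 to 7215498), and 4 of their 6 sites rose. IGFBP3 is the main carrier of IGF in blood, and IGFBP1 is a liver product under insulin control. The site over the Igfbp3 promoter printed above, at 7213751 to 7214251, rose by 1.22 ± 0.38 at a mean signal of 22.4 (SE, adjusted p = 0.00178 by the authors' deposited table). Inside the same gene, 2.48 kb downstream of the start, a second site at 7211191 to 7211691 rose by 5.24 ± 1.14 at a mean signal of 11.8 (adjusted p = 1.13e-05 by the authors' deposited table). Of 282 listed sites with a mean signal within 5% of this one, 7 had a higher log2 fold change. Igfbp1 itself had no site inside the gene, and the nearest lay 8.89 kb away within Igfbp3.

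The strongest of the 6 sites lay on the far side of Igfbp1, inside the neighbouring gene Adcy1, which encodes an adenylyl cyclase of the brain. It stood at 7160601 to 7161101, 36.9 kb from Igfbp1 and 45.2 kb from Igfbp3, and rose by 5.54 ± 0.74 at a mean signal of 36.6 (adjusted p = 3.5e-12 by the authors' deposited table). Of the 93 listed sites with a mean signal within 5% of it, 1 had a higher fold change. Its neighbour 419 bp away, also within Adcy1, was not called, with 0.09 ± 0.50 at a mean signal of 6.87 in the authors' deposited table. Between Adcy1 and Igfbp1, 16.2 kb from Igfbp1, the authors' deposited table has a further rise of 3.77 ± 1.05 (adjusted p = 0.000611). The sixth, 6.52 kb beyond the start side of Igfbp3 and inside the noncoding gene Gm36565, had -1.32 ± 1.02 in the authors' deposited table and was not called (adjusted p = 0.144). For 3 of these 6 sites Adcy1 is the nearest protein-coding gene, and with a window of 10000 bp the rises numbered 2 at Igfbp3 and 1 at Igfbp1.

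At Igfbp2 (chromosome 1, 72824480 to 72852474) and Igfbp5 (72858065 to 72874865) 3 of 9 sites rose, 2 fell and 4 were not called, and the rises lay inside the genes. IGFBP2 is a binding protein abundant in the developing brain, and IGFBP5 one that also binds extracellular matrix. Around the start of Igfbp2 a pair of sites 91 bp apart differed in their calls. The one upstream, at 72823720 to 72824220, fell with -1.44 ± 0.48 (SE, adjusted p = 0.0032, mean signal 13.5) in the authors' deposited table. The one over the start, at 72824311 to 72824811, which takes in all 3 GC boxes of the promoter printed above, had 0.25 ± 0.40 at a mean signal of 11.9 in the authors' deposited table and was not called (adjusted p = 0.534). The 95% intervals of both fold changes overlap, and the difference between the sites was not tested. Inside Igfbp2 a site 8.47 kb from the start rose by 1.97 ± 0.70 at a mean signal of 7.92 (adjusted p = 0.00598 by the authors' deposited table).

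Within Igfbp5 the site at 72858749 to 72859249, 934 bp from the gene's far end, rose by 2.62 ± 0.54 at a mean signal of 13.4 (adjusted p = 1.2e-05 by the authors' deposited table). Another inside the gene, 2.16 kb downstream of the start, rose by 0.98 ± 0.48 at a mean signal of 13.0 (adjusted p = 0.0309 by the authors' deposited table), and this call was lost with the recomputed p (adjusted p = 0.083). The third Igfbp5 site, 8.77 kb from the start, had 0.70 ± 0.55 in the authors' deposited table and was not called. No site lay within 1000 bp of the start of Igfbp5. The largest fall of all 37 sites was in the window of Igfbp2 alone, 45.6 kb upstream and inside the noncoding gene Gm30847, at 72778663 to 72779163, with -4.82 ± 1.22 at a mean signal of 4.44 (adjusted p = 0.000125 by the authors' deposited table). Its fold change was at the lower edge for such signal, with 9 of 414 sites within 5% of its mean signal lower and the lowest of them at -4.89. Sites 9.06 kb upstream of Igfbp2 and between the genes had 1.85 ± 1.40 and -0.47 ± 0.86 in the authors' deposited table, at mean signals of 2.08 and 2.97, and neither was called.

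Irs1 (chromosome 1, 82233105 to 82291439) had the highest share of rises among the 7 genes, 5 of 7 sites, with 1 fall and 1 site not called. Its sites were also the strongest, with a median mean signal of 31.8. At the start, the site at 82291347 to 82291847, which covers the promoter printed above with its pair of GC boxes, rose by 1.23 ± 0.31 at a mean signal of 37.5 (SE, adjusted p = 0.000164 by the authors' deposited table). The next site upstream, 888 bp away at 82292735 to 82293235, fell with -1.36 ± 0.33 at a mean signal of 31.8 (adjusted p = 0.000109 by the authors' deposited table). These neighbours were thus called in opposite directions at like signal, with 95% intervals of 0.62 to 1.84 and -2.01 to -0.72 computed from the deposited fold changes and SEs, and the difference itself was not tested.

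Inside Irs1 the site 8.18 kb from the start rose by 1.42 ± 0.32 at a mean signal of 39.2 (adjusted p = 3.3e-05 by the authors' deposited table). A weaker one 10.3 kb from the far end rose by 3.18 ± 0.96 at a mean signal of 5.69 (adjusted p = 0.00154 by the authors' deposited table). The largest rise of all 37 sites lay 43.3 kb beyond the far end, between genes, at 82189520 to 82190020, with 5.88 ± 1.13 at a mean signal of 19.0 (adjusted p = 6.14e-07 by the authors' deposited table). Irs1 is the nearest protein-coding gene to it, and 2 of 152 listed sites within 5% of its mean signal had a higher fold change. On the other side, the site with the highest mean signal of the 37, 46.5, stood within Rhbdd1, which begins there, at 25.1 kb from Irs1. It had 0.15 ± 0.25 in the authors' deposited table and was not called (adjusted p = 0.573). A weak site farther into Rhbdd1 rose by 3.31 ± 1.33 at a mean signal of 3.08 (adjusted p = 0.00991 by the authors' deposited table).

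Grb10 (chromosome 11, 11930499 to 12037428) had 10 sites, with 4 falls, 1 rise and 5 sites not called. A pair of overlapping sites, sharing 85 bp, stood at its upstream start, where the printed promoter has the most GC boxes of the 5. The outer one, at 12037525 to 12038025, fell with -3.39 ± 1.13 at a mean signal of 4.57 (SE, adjusted p = 0.00322 by the authors' deposited table). The inner one, at 12037110 to 12037610, had -0.69 ± 0.64 at a mean signal of 6.12 in the authors' deposited table and was not called (adjusted p = 0.231). Their 95% intervals overlap, and fragments over the shared stretch can count for both. Of the 5 GC-box cores in the printed promoter, 2 lie in the outer site and 3 in the inner one. Near the second RefSeq start, inside the gene, sites 1.06 kb and 2.08 kb downstream of that start had log2 fold changes of -0.16 ± 0.50 and 0.14 ± 0.34, the second at the highest mean signal of the locus, 18.8, by the authors' deposited table. Neither was called (adjusted p = 0.75 and 0.688).

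At the far end of Grb10 3 sites fell at the deposited adjusted p below 0.05, and with recomputed p or at an adjusted p below 0.01 the falls of the whole gene numbered 3 in place of 4. The one inside the gene, 12.3 kb from the end at 11942538 to 11943038, had -4.11 ± 0.78 at a mean signal of 13.1 (adjusted p = 1.16e-06 by the authors' deposited table). The site 6.3 kb beyond the end had -2.40 ± 1.08 (adjusted p = 0.0208) and the one 25.4 kb beyond it, nearest to the amine-synthesis gene Ddc, had -3.53 ± 0.92 (adjusted p = 0.000301) in the authors' deposited table. Of these 2 the nearer one was no longer called with the recomputed p (adjusted p = 0.0549) or with centring on the median of all sites (adjusted p = 0.0922). In the middle of the gene a pair of sites was not called, with 0.12 ± 0.33 and -0.57 ± 0.51 at mean signals of 17.6 and 9.48 in the authors' deposited table. The single rise, 3.39 ± 1.53 (adjusted p = 0.0164 by the authors' deposited table), was at the weakest of the 37 sites, with a mean signal of 1.96, and was lost with the recomputed p (adjusted p = 0.0569).

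**Figure D3:**
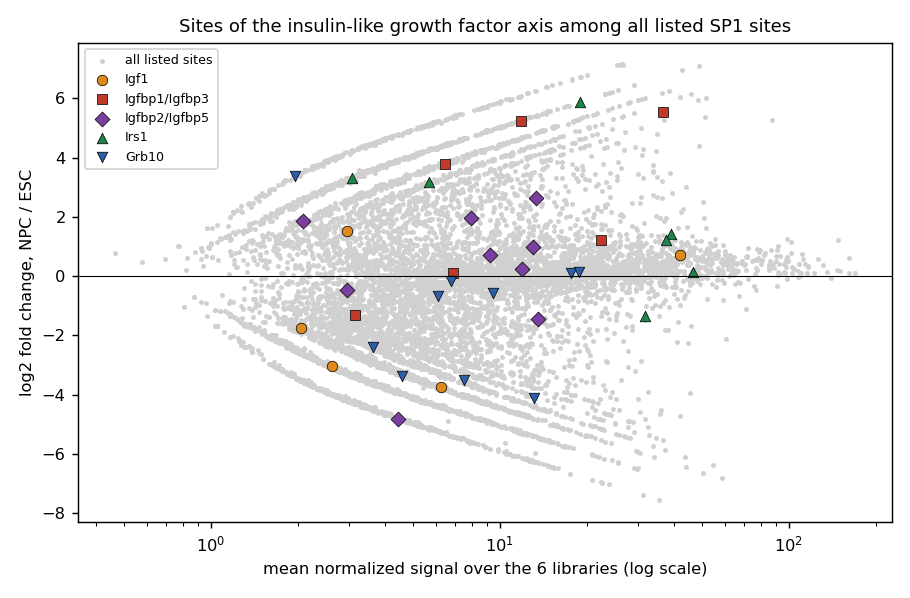
Log2 fold change (NPC over ESC) against mean normalized signal (log scale) for all 9001 listed sites in grey, with the 37 sites of the 5 loci coloured by locus. The curved bands of grey points at the top and bottom hold sites of like signal with nearly equal fold changes, and the strongest rises of Igfbp1/Igfbp3 and Irs1 lie between 5.24 and 5.88.

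The 14 rises had a median log2 fold change of 2.90 and the 9 falls one of -3.39, against 3.03 and -3.24 over all called sites in the same table. Of the 25 sites at or above the median signal of all sites 11 rose (44%) and 5 fell (20%), where 28.9% and 30.3% of all such sites did. Among the 12 weaker sites 3 rose (25%) and 4 fell (33.3%), where 16.7% and 34.9% of all weaker sites did. Inside the 7 genes 9 of 19 sites rose and 2 fell, and outside them 5 of 18 rose and 7 fell. Of the 4461 listed sites inside any protein-coding gene 24.1% rose and 30.1% fell, and of the 4540 outside such genes 21.6% rose and 35% fell. The outside classes are not alike, because the 18 sites outside the 7 genes include those within the protein-coding genes Adcy1 and Rhbdd1. Within 1000 bp of a transcription start of one of the 7 genes lay 8 sites, of which 2 rose, at Igfbp3 and Irs1, and 3 fell, at Igf1, Igfbp2 and Grb10. Among all 1473 listed sites that near to a RefSeq start, 24.8% rose and 16.2% fell. No difference between these classes was tested.

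Set among the 1488 protein-coding genes with 5 or more listed sites by the same window, 1.01% had a share of rises as high as that of Irs1 or higher, and 2.08% one as high as that of Igfbp1 and Igfbp3. For Igfbp5, Igfbp2, Igf1 and Grb10 these figures were 20.2%, 26.6%, 51% and 74.3%. For the share of falls at Grb10 and Igf1, 40% at each, 33.7% of genes had as high a share or higher. The median log2 fold change per gene was 2.50 at Igfbp1 and Igfbp3, 1.42 at Irs1, 0.84 at Igfbp5, 0.70 at Igfbp2, -0.63 at Grb10 and -1.76 at Igf1. The genes compared were not matched for number of sites or for signal. The median signal was 31.8 over the Irs1 sites and 5.78 over all listed sites. Windows of neighbouring genes share sites, so these shares describe the table and test nothing.

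Other genes of the IGF and insulin pathway were taken from a list of 53, of which 14 had a site in the listed regions. Of their 124 sites 29 rose (23.4%) and 38 fell (30.6%), close to the shares of all listed sites given above, with a median log2 fold change of 0.04. Pappa2, a protease that cleaves IGF-binding proteins, had 3 sites and no call, with 2.70 ± 1.76 at the site of smallest adjusted p (adjusted p = 0.0687 by the authors' deposited table). The adaptor gene Shc2 had 7 falls and 2 rises among 13 sites, led by -1.91 ± 0.38 (adjusted p = 4.44e-06 by the authors' deposited table). Socs2, a brake on growth hormone and IGF action, had 6 falls and 1 rise among 10 sites, and its leading site, 39 kb away and nearest to Mrpl42, had -7.03 ± 1.13 (adjusted p = 2.59e-09 by the authors' deposited table). Of the phosphoinositide enzymes and their regulators, Inpp5d had 4 falls and no rise among 6 sites (leading site -4.93 ± 1.16), Pik3c2b 4 falls and 2 rises among 8 (-2.95 ± 0.79), Pik3ip1 5 falls and 3 rises among 15 (-3.26 ± 0.61) and Inpp4a 1 fall and 2 rises among 7 (4.04 ± 1.21), by the authors' deposited table. Downstream, the phosphatase gene Phlpp1 had 3 rises and 3 falls among 12 sites (leading site 4.18 ± 0.88) and the kinase gene Sgk1 1 rise and 2 falls among 5 (-4.54 ± 1.19), by the authors' deposited table. Foxo3, a transcription factor that insulin signalling holds out of the nucleus, had 2 rises and 1 fall among 7 sites, led by 2.08 ± 0.40 at a site 87 bp from the gene (adjusted p = 3.08e-06 by the authors' deposited table). Among regulators of mTORC1, Ddit4 had 6 rises and 2 falls among 13 sites (leading site 2.82 ± 0.34), Sesn1 3 rises and 1 fall among 7 (3.95 ± 1.23) and Stk11 2 rises and 1 fall among 12 (0.81 ± 0.30), by the authors' deposited table. Several leading sites lay away from the named gene and nearest to another. They stood 49.9 kb from Ddit4 (nearest to Dnajb12), 37.1 kb from Stk11 (Cirbp) and 18.7 kb from Sesn1 (Armc2). Those of Pik3ip1 and Shc2 stood 10.3 kb (Limk2) and 3.76 kb (C2cd4c) away. The leading sites of Sgk1, Phlpp1 and Pik3c2b were nearest to these genes, at 36.3, 34.1 and 9.72 kb.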

How the data were processed

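ATAC-seq accessibility was measured in 3 NPC and 3 ESC libraries, grouped by their titles. Per the submitters' processing notes the authors used the mm10 build, BWA 2.1, Picard 2.23.8, MACS2 2.2.7, SAMtools 1.9 and DESeq2. The authors' settings, their DESeq2 version and model, any shift for the Tn5 offset and the choice of SP1 sites are given in no source used here, and each could change the values. Per the file headers, the deposited table gives for each site the authors' mean normalized signal, log2 fold change, its SE, p-value and adjusted p-value. Sites span 500 bp. Whether their coordinates count from 0 or 1 is not stated, so distances may be off by 1 bp. The table covers chromosome 1, chromosome 10 and chromosome 11 up to position 20195189. Fold changes at sites with few reads in 1 cell type depend on the authors' fit.

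Sites were joined to genes of the RefSeq GRCm38.p6 table with Python 3.11.15 and pandas 2.3.3. A site was called at the deposited adjusted p below 0.05. Alternatives used recomputed p-values (normal test of log2 fold change over SE, Benjamini-Hochberg over the 9001 sites), centring with the same normal test, thresholds, windows and gene assignment. At every site of the 7 genes the recomputed p was larger than the deposited one. The deposited p-values are thus not those of the printed fold change over its SE, and the 95% intervals need not match them. The members and lists were chosen with earlier results of these data known. Sites named are those within 1000 bp of a gene end, the largest called rise and fall, and that of highest signal per gene, with all sites given for genes with 8 or fewer, and per pathway gene that of smallest adjusted p. The 5 sites outside this rule, all at Grb10, are given too, a choice made after their values were seen. The values of 1 gene of the pathway list are not reported here.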

Additional observations from a re-analysis of the deposited data

How the results depend on the processing

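Over the 37 sites the counts of 14 rises and 9 falls stayed within 1.5 times at an adjusted p below 0.01 (11 and 7), with adjustment over the listed sites, with recomputed p (12 and 7), with centring (14 and 7), with an absolute log2 fold change above 1, without the lowest 25% of signal, with a window of 10000 bp (10 and 6), with nearest-gene assignment and with 1 site per overlap group. Restricting to sites inside a gene or within 1000 bp left 4 falls and a median log2 fold change of 0.48. Centring on the median of all sites gave a median of 0.44. With centring 23.1% of all listed sites rose and 22.8% fell. Centring leaves as many positive as negative fold changes, so near-equal shares largely follow from the step itself. With recomputed p 18.8% rose and 26.5% fell. Centring also took its p from the normal test, so its 14 and 7 compare with the 12 and 7 of recomputed p. Leaving out Irs1 left 9 rises, and leaving out Grb10 left 5 falls and a median of 0.98. Fewer sites were counted in each case, and those left out held more than their share of calls. At Irs1 71.4% of sites rose and at Grb10 40% fell, against 37.8% and 24.3% of the 37 sites. The median of Grb10, left out there, was -0.63. Leaving out loci was added after the data were seen and gave for these genes the same values. For the pathway list the rises numbered 18 at an adjusted p below 0.01, and a window of 10000 bp left 15 rises and 21 falls. Of 32 sites named by rule, 3 lost their call with recomputed p and 1 with centring, and none changed direction. No paired analysis was possible because the table holds no values per library, and for the same reason no library could be left out. Low counts limit single sites, whose SE reached 1.53.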
